A study of Mus musculus with 141 samples.

Results

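The interpeduncular nucleus (IPN) and the nucleus accumbens (NAc) of mice that never received nicotine were compared for their miRNAs. The IPN is a small midline nucleus of the ventral midbrain that receives the axons of the medial habenula, and the NAc is a forebrain region of the mesolimbic reward system that served the study as a region outside the habenular circuit. The 10 libraries were taken from the labels, 5 IPN and 5 NAc miRNA libraries of control (TA) mice out of 141 samples in the series, of which 75 were miRNA libraries. All mice were male C57BL/6J. From 6 weeks of age the TA mice drank tartaric acid with saccharine at 3 g/L for 6 weeks, and the TAL controls drank it for 10 weeks. IPN and NAc libraries of TAL mice, 5 of each, were used only to see whether a regional difference repeated in other mice. Each library pools tissue punches of 4 brains, and nothing in the labels says that the IPN and NAc libraries of one number came from the same mice. P-values therefore measure the spread between pools. In bulk tissue, fewer cells of a type and less RNA per cell cannot be told apart.

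miRNAs are short RNAs cut from the arms of a hairpin and loaded into Argonaute, which they guide to mRNAs through the seed, the bases near the 5′ end that pair with the target. miRNAs with one seed form a family and can bind overlapping targets, and many are transcribed together as a cluster or from the intron of a host gene. Several are restricted in the body to neurons, to blood vessels, to blood cells or to posterior tissues, so the miRNA profile of a brain region also carries its cellular makeup.

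The libraries held 6459074 to 12393851 miRNA reads in the IPN and 9687205 to 13526573 in the NAc of TA mice, and 5613513 to 16341728 in the IPN and 23308193 to 33690462 in the NAc of TAL mice. Levels are given as RPM, the reads of a miRNA scaled to a fixed total of miRNA reads per library. Of 1907 miRNAs listed for both regions, 646 had a mean of at least 1 RPM over the 10 TA libraries and were tested with limma on log2 of RPM plus 1. That scale understates the differences of miRNAs near 1 RPM. The first principal component held 73.8% of the variance and separated the IPN from the NAc libraries, and IPN replicate 5 stood apart from the other IPN libraries on the second, with 10.3%. Longer RNA of the same preparations was sequenced for mRNA and checked the labels. The mRNA and miRNA libraries are separate and were matched by the number in their titles. Markers of the IPN were higher in the IPN libraries for 7 of 10 genes (24.2% of 13587 genes passed adjusted p under 0.01 and a fold over 2, 5.84% higher and 18.4% lower in the IPN), and markers of the NAc were lower there for 10 of 10. Otp and Pax7, transcription factors of the IPN region, averaged 18.4 and 11.8 TPM in the IPN and 0.038 and 0.006 TPM in the NAc, while Sst, also on the IPN list, averaged 1383 and 1064 TPM and was not called. The IPN punch also held dopamine and serotonin neurons, whose 5 and 3 markers were all higher there, with the dopamine transporter Slc6a3 between 24.5 and 90.1 TPM in the IPN and at most 0.44 TPM in the NAc. The part of these neighbouring neurons in the miRNA differences was not tested.

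The mature sequences below belong to the miRNAs on which the results turn. They were taken from RefSeq (GRCm38.p6), where 560 of the 646 tested miRNAs had an entry, among them 19 of the 24 miRNAs with the largest regional differences (12 per direction, called, without overlap and with a mean of at least 10 RPM). They are written 5′ to 3′ with the seed (bases 2 to 8) in capitals. The first set was higher in the IPN, apart from miR-449a-5p, which is shown because it has the seed of miR-34a-5p and was lower there.
miR-10b-5p: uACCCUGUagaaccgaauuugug (chr2:74726074-74726096, + strand)
miR-10a-5p: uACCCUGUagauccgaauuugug (chr11:96317186-96317208, + strand)
miR-199a-5p: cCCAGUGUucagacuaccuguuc (chr1:162217844-162217866, + strand, and chr9:21496537-21496559, - strand)
miR-199a-3p: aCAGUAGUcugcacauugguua (chr1:162217883-162217904, + strand, and chr9:21496498-21496519, - strand)
miR-217-5p: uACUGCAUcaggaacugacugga (chr11:28763761-28763783, + strand)
miR-216a-5p: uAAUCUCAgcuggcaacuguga (chr11:28757018-28757039, + strand)
miR-451a: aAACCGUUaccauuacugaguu (chr11:78073186-78073207, + strand)
miR-144-5p: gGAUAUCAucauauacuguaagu (chr11:78073010-78073032, + strand)
miR-223-3p: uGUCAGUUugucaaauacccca (chrX:96242884-96242905, + strand)
miR-204-5p: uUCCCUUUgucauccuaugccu (chr19:22750610-22750631, + strand)
miR-211-5p: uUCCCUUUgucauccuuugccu (chr7:64205831-64205852, + strand)
miR-34a-5p: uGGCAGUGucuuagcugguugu (chr4:150068473-150068494, + strand)
miR-449a-5p: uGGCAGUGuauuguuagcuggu (chr13:113037549-113037570, + strand)

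The second set was lower in the IPN, with the 3p partner of miR-92b-5p added for the comparison of hairpin arms.
miR-221-3p: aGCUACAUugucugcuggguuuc (chrX:19146307-19146329, - strand)
miR-222-3p: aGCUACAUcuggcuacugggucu (chrX:19146901-19146923, - strand)
miR-132-3p: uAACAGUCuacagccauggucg (chr11:75173723-75173744, + strand)
miR-212-3p: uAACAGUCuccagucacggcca (chr11:75173443-75173464, + strand)
miR-132-5p: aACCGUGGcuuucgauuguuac (chr11:75173686-75173707, + strand)
miR-137-3p: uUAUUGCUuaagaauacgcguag (chr3:118433901-118433923, + strand)
miR-128-3p: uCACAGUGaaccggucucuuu (chr1:128202404-128202424, + strand, and chr9:112118644-112118664, - strand)
miR-139-3p: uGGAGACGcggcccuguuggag (chr7:101475418-101475439, + strand)
miR-193b-3p: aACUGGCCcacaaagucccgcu (chr16:13449570-13449591, + strand)
miR-431-5p: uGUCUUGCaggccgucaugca (chr12:109590459-109590479, + strand)
miR-540-5p: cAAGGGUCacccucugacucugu (chr12:109586085-109586107, + strand)
miR-92b-5p: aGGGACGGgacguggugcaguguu (chr3:89227165-89227188, - strand)
miR-92b-3p: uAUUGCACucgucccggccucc (chr3:89227126-89227147, - strand)

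The third set, made up of miR-200 relatives and the miRNAs clustered with miR-183, was highest in IPN replicate 5.
miR-200b-3p: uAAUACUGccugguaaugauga (chr4:156055685-156055706, - strand)
miR-429-3p: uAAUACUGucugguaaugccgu (chr4:156053916-156053937, - strand)
miR-200c-3p: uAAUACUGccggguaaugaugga (chr6:124718324-124718346, - strand)
miR-200a-3p: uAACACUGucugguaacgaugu (chr4:156054911-156054932, - strand)
miR-141-3p: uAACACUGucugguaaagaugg (chr6:124717917-124717938, - strand)
miR-183-5p: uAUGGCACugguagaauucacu (chr6:30169711-30169732, - strand)
miR-182-5p: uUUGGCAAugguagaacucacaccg (chr6:30165962-30165986, - strand)
miR-96-5p: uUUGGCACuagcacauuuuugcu (chr6:30169506-30169528, - strand)

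Within the first set, miR-10a-5p and miR-10b-5p share their seed and differ by one base (U12A, counted from the 5′ end, miR-10a-5p first), and miR-204-5p and miR-211-5p likewise differ by A17U. miR-199a-3p and miR-199b-3p have the same sequence, so their reads were shared out between them and they count as 1 measurement. miR-221-3p and miR-222-3p share a seed, as do miR-132-3p and miR-212-3p.

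In TA mice 286 of the 646 miRNAs differed between the regions at adjusted p under 0.01 (44.3%), 168 higher (26.0%) and 118 lower (18.3%) in the IPN. A fold over 2 was reached by 138 of them (21.4%), 85 higher (13.2%) and 53 lower (8.20%). For 168 miRNAs every IPN library lay above every NAc library (26.0%), and for 107 every IPN library lay below (16.6%). The median log2 difference of all tested miRNAs was 0.16, and scaling by quantiles, by TMM or by DESeq2 size factors moved it to -0.02, 0.09 and 0.05. With these scalings 133, 150 and 153 miRNAs were called higher and 150, 130 and 167 lower, so the excess of higher calls depended on the scaling. Without IPN replicate 5, 271 miRNAs were called, 263 of them in the same direction as with all libraries. Of the 646 miRNAs, 144 shared a seed with another tested miRNA. In 20 such seed groups at least 2 members were called, and in 15 of these all called members moved one way.

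**Figure D1:**
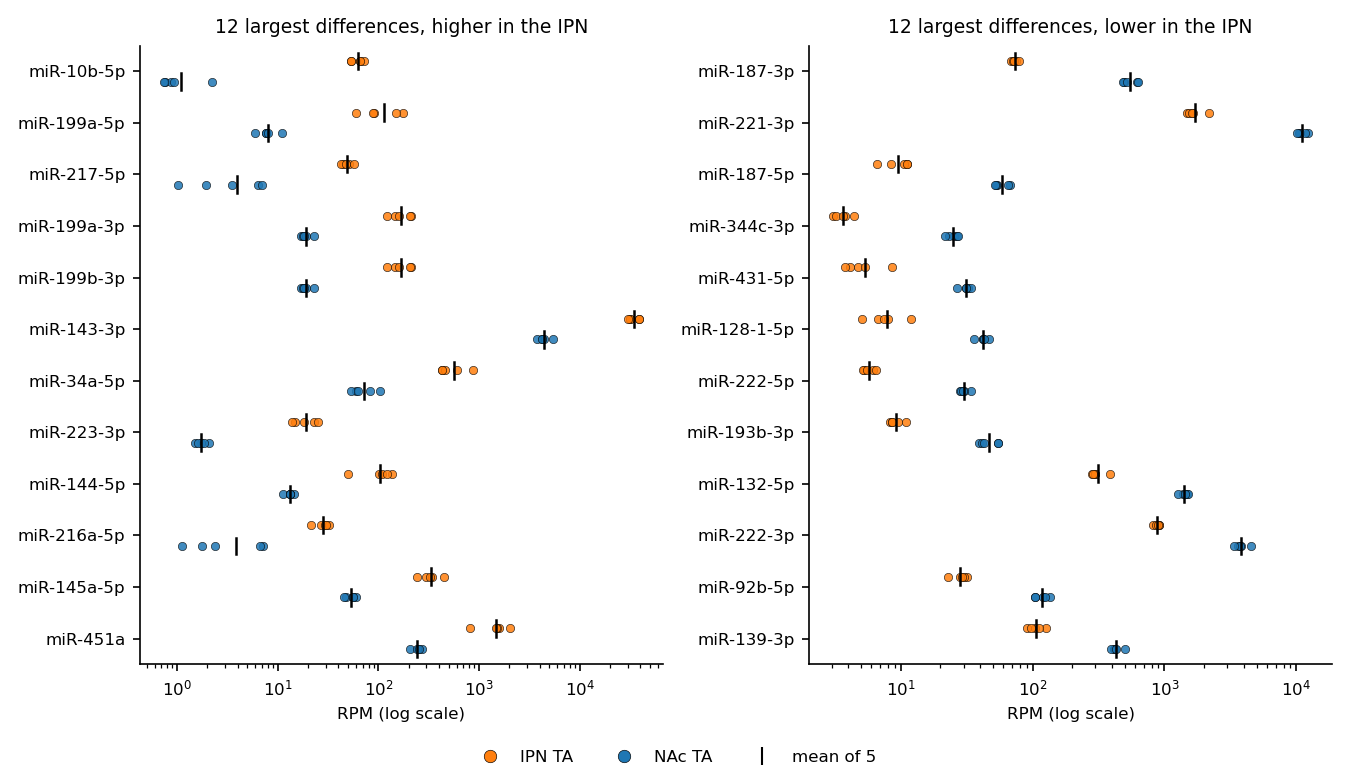
The RPM (log axis) is plotted of the 12 miRNAs per direction with the largest regional difference among those called, without overlap between the regions and with a mean of at least 10 RPM, for each of 5 IPN TA (orange) and 5 NAc TA (blue) libraries, with the mean of each region as a bar. The levels span a wide range, from miR-10b-5p (at least 53.3 RPM in the IPN and at most 2.21 RPM in the NAc) to miR-221-3p (1691 RPM in the IPN and 11057 RPM in the NAc).

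The largest regional difference belonged to miR-10b-5p. The miR-10 genes lie within the Hox clusters, whose expression marks the hindbrain and spinal cord and is absent from the forebrain. miR-10b-5p was at 65.3, 54.0, 72.3, 53.3 and 65.9 RPM in the IPN libraries, against 0.764, 2.21, 0.881, 0.929 and 0.739 RPM in the NAc libraries. The IPN libraries lay close together, and among the NAc libraries replicate 2 was highest. The difference was 4.94 on the log2(RPM + 1) scale (SE 0.178, limma adjusted p = 3.32e-11). These RPM rest on 467 to 755 reads in the IPN and on 8 to 22 reads in the NAc. Its Hox-linked relative miR-10a-5p was at 83.2, 67.3, 79.0, 64.5 and 95.7 RPM in the IPN, against 27.8, 27.4, 30.9, 25.9 and 25.8 RPM in the NAc. The groups did not overlap, and the difference was smaller (log2 difference 1.46, limma adjusted p = 2.06e-07). Of the 5 Hox-linked miRNAs on the list, miR-196a-5p, miR-196b-5p and miR-615-3p were below 1 RPM in both regions and not tested. The part of Hox gene expression in the miR-10 differences was not tested.

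miRNAs of blood vessels and connective tissue were higher in the IPN as a group. All 10 tested members of the vascular and mesenchymal list were called higher, against 26.0% of all tested miRNAs. The median log2 difference of the list was 2.46, against 0.16 over all tested miRNAs. The summed level of its members ran from 34436 to 44905 RPM in the IPN and from 5878 to 7525 RPM in the NAc. Most of that sum was miR-143-3p, a miRNA of smooth muscle, which was at 38549, 31724, 31507, 30334 and 38848 RPM in the IPN, against 5371, 4191, 4452, 3742 and 4253 RPM in the NAc. Every IPN library exceeded every NAc library several-fold (log2 difference 2.96, SE 0.109, limma adjusted p = 3.32e-11). miR-145a-5p, from the same cluster, averaged 330 RPM in the IPN and 53.0 RPM in the NAc.

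The miR-199 and miR-214 miRNAs of mesenchymal cells followed the same direction. miR-199a-5p was at 90.0, 88.0, 177, 60.2 and 150 RPM in the IPN, against 7.64, 11.0, 7.61, 7.95 and 5.91 RPM in the NAc. The IPN libraries varied widely among themselves, lowest in replicate 4, and still lay above every NAc library (log2 difference 3.58, limma adjusted p = 1.67e-08). miR-199a-3p averaged 169 RPM in the IPN and 19.0 RPM in the NAc (log2 difference 3.07). miR-126a-3p, the endothelial miRNA held in an intron of Egfl7, averaged 2890 ± 569 RPM in the IPN and 1516 ± 134 RPM in the NAc (SD, n = 5 each, log2 difference 0.91, limma adjusted p = 1.89e-05).

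mRNAs of mural cells and fibroblasts moved with these miRNAs in RNA of the same preparations. Of 10 such genes, chosen after the miRNA values were seen, 7 were called higher in the IPN, against 5.84% of all 13587 genes. For 9 of them every IPN library lay above every NAc library, a share that was not counted over all genes. The smooth muscle actin gene Acta2 was at 64.5, 43.6, 49.4, 29.2 and 87.2 TPM in the IPN, against 5.75, 2.37, 2.25, 2.12 and 5.18 TPM in the NAc. The collagen gene Col1a2 averaged 42.7 TPM in the IPN and 5.78 TPM in the NAc, with no overlap, while the pericyte receptor Pdgfrb averaged 3.71 and 5.95 TPM and was not called. Of 5 endothelial genes, only the tight junction gene Cldn5 was called, at 339 ± 124 TPM in the IPN and 95.0 ± 29.3 TPM in the NAc. Their part in the miRNA differences was not tested.

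Blood miRNAs were also higher in the IPN, with 11 of 11 tested members of the blood and microglia list called higher, against 26.0% of all tested miRNAs. The list had a median log2 difference of 1.68 and a summed level of 3437 to 6228 RPM in the IPN and 1339 to 1590 RPM in the NAc. miR-451a, the miRNA of red cells, was at 1576, 1496, 1487, 804 and 2022 RPM in the IPN, against 207, 272, 245, 242 and 251 RPM in the NAc. IPN replicate 4 was lowest and replicate 5 highest in the IPN, and all 5 exceeded the NAc libraries (log2 difference 2.54, limma adjusted p = 2.91e-08). miR-144-5p, from the same cluster as miR-451a, was at 101, 109, 138, 49.9 and 122 RPM in the IPN, against 11.4, 14.6, 13.2, 13.2 and 13.4 RPM in the NAc, again lowest in IPN replicate 4. miR-223-3p, a miRNA of myeloid cells, averaged 19.0 RPM in the IPN and 1.75 RPM in the NAc (log2 difference 2.83).

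The 5 red cell mRNAs, added after the miRNA values were seen, were all called higher in the IPN. The globin gene Hbb-bs was at 2497, 2604, 3133, 625 and 3559 TPM in the IPN, against 351, 691, 817, 615 and 317 TPM in the NAc. IPN replicate 4 fell within the range of the NAc libraries, and the IPN miRNA library of the same number had the lowest miR-451a. Microglia did not show this pattern in mRNA. Of 5 microglial genes, none was called higher, and the fractalkine receptor gene Cx3cr1 was lower, at 3.65 ± 0.673 TPM in the IPN and 14.4 ± 7.24 TPM in the NAc (SD, n = 5 each). The part of blood left in the tissue was not tested.

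Further miRNAs higher in the IPN belong to families known from epithelia, stress responses and muscle. The 3 tested miR-204 and miR-211 arms, abundant in choroid plexus and pigment epithelium, were called higher, with miR-204-5p at 2855, 3084, 3900, 3072 and 3210 RPM in the IPN, against 748, 983, 840, 751 and 668 RPM in the NAc. The levels were even within each region and did not overlap (log2 difference 2.02, limma adjusted p = 2.66e-09). miR-211-5p averaged 30.5 RPM in the IPN and 4.75 RPM in the NAc. The choroid plexus gene Ttr was at 17.2, 164, 188, 5.09 and 12.8 TPM in the IPN, against 0.16 to 7.52 TPM in the NAc. Ttr and miR-204-5p were both highest in replicate 3, and the order of the other replicates differed. In replicates 2 and 4 Ttr was at 164 and 5.09 TPM, and miR-204-5p at 3084 and 3072 RPM. Ttr was the only one of 5 choroid plexus and ependymal genes to be called. Folr1, Foxj1 and Rarres2 averaged 1.42, 27.2 and 19.6 TPM in the IPN and 0.606, 18.4 and 26.2 TPM in the NAc and were not called, and Kcne2 was too low to be tested. The part of this tissue in the miR-204 levels was not tested.

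miR-34a-5p, a target of p53, was at 426, 459, 878, 429 and 601 RPM in the IPN, against 59.3, 82.6, 53.5, 104 and 62.6 RPM in the NAc. IPN replicate 3 was highest and the regions did not overlap (log2 difference 2.92, limma adjusted p = 2.86e-08). Its seed relatives did not share the difference. miR-34c-5p averaged 670 RPM in the IPN and 537 RPM in the NAc (log2 difference 0.35, limma adjusted p = 0.0503), and miR-449a-5p was lower, at 7.47 RPM in the IPN and 13.4 RPM in the NAc (log2 difference -0.79, limma adjusted p = 0.00199).

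miR-135a-5p, with reported targets in serotonin signalling, was at 2641, 2725, 5926, 2853 and 3195 RPM in the IPN, against 1069, 976, 735, 882 and 905 RPM in the NAc, and its family member miR-135b-5p averaged 201 RPM in the IPN and 98.3 RPM in the NAc. IPN replicate 3 was again the highest, and neither miRNA overlapped between the regions. miR-217-5p and miR-216a-5p come from neighbouring hairpins on chromosome 11 and are known from the pancreas. miR-217-5p was at 50.7, 44.5, 42.4, 56.7 and 48.1 RPM in the IPN, against 6.40, 7.04, 3.52, 1.03 and 1.92 RPM in the NAc (log2 difference 3.49). In the NAc both ran highest in replicates 1 and 2.

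Of the muscle and liver miRNAs, 4 of 5 tested were called higher in the IPN, against 26.0% of all tested miRNAs. miR-1a-3p averaged 1867 ± 260 RPM in the IPN and 435 ± 37.5 RPM in the NAc (SD, n = 5 each), and miR-133a-3p averaged 166 and 32.1 RPM. miR-122-5p, the liver miRNA, averaged 18.6 RPM in the IPN and 17.8 RPM in the NAc and was not called.

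The strongest loss in the IPN among abundant miRNAs was in miR-221 and miR-222, a pair from one X-linked cluster that acts on the cell cycle inhibitor p27. miR-221-3p was at 1495, 1542, 2173, 1636 and 1609 RPM in the IPN, against 12314, 10737, 10520, 11615 and 10097 RPM in the NAc. IPN replicate 3 was highest in the IPN and still far below the NAc libraries (log2 difference -2.72, SE 0.108, limma adjusted p = 5.84e-11). miR-222-3p was at 910, 817, 911, 867 and 901 RPM in the IPN, against 4565, 3621, 3836, 3768 and 3357 RPM in the NAc (log2 difference -2.11). All 4 arms of the cluster were called lower (median log2 difference -2.16), against 18.3% of all tested miRNAs. The summed level of the 4 arms ran from 2502 to 3192 RPM in the IPN and from 13997 to 17259 RPM in the NAc.

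miR-187-3p, the largest difference in the lower direction, was at 68.1, 75.4, 71.4, 72.1 and 78.8 RPM in the IPN, against 616, 630, 494, 485 and 521 RPM in the NAc. The IPN libraries differed among themselves by far less than the gap to the NAc (log2 difference -2.88, limma adjusted p = 3.32e-11), and miR-187-5p from the other arm followed (log2 difference -2.50).

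Neuronal miRNAs were lower in the IPN, with 8 of 10 listed members called lower, 0 called higher and a median log2 difference of -1.16. Of all tested miRNAs, 18.3% were called lower. miR-132 and miR-212 are induced by neuronal activity through CREB. miR-132-5p was at 281, 295, 389, 300 and 288 RPM in the IPN, against 1487, 1378, 1261, 1512 and 1433 RPM in the NAc (log2 difference -2.19, limma adjusted p = 5.85e-10). IPN replicate 3 was the highest of the IPN libraries and no library overlapped. From the other arm, miR-132-3p averaged 963 ± 77.7 RPM in the IPN and 2609 ± 360 RPM in the NAc (SD, n = 5 each), and miR-212-3p averaged 21.8 ± 6.07 RPM in the IPN and 55.4 ± 9.82 RPM in the NAc.

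miR-128-3p, a broadly neuronal miRNA that restrains excitability, was at 23375, 17923, 26011, 18723 and 22904 RPM in the IPN, against 55973, 68220, 71993, 74355 and 75889 RPM in the NAc. It was among the 5 highest miRNAs of the NAc and not among those of the IPN (log2 difference -1.68, limma adjusted p = 1.37e-08). miR-137-3p, encoded at a schizophrenia risk locus, was at 1419, 1644, 1183, 1641 and 1711 RPM in the IPN, against 7407, 5586, 5439, 6050 and 4941 RPM in the NAc (log2 difference -1.95). miR-124-3p, restricted to neurons, averaged 23522 ± 2986 RPM in the IPN and 44054 ± 6809 RPM in the NAc (SD, n = 5 each, log2 difference -0.90, limma adjusted p = 9.29e-06). miR-9-5p and miR-9-3p, the other neural miRNAs of the list, were not called.

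Further miRNAs with large differences in this direction were miR-218, miR-139, miR-193b, miR-431 and miR-344c. miR-218-5p, a miRNA of motor neurons, averaged 1285 RPM in the IPN and 3444 RPM in the NAc, and miR-139-3p averaged 107 and 433 RPM. miR-193b-3p was at 10.9, 9.61, 8.36, 8.55 and 8.56 RPM in the IPN, against 39.1, 41.0, 55.1, 42.8 and 55.1 RPM in the NAc. miR-431-5p averaged 5.33 RPM in the IPN and 31.2 RPM in the NAc, and miR-344c-3p averaged 3.64 and 24.9 RPM.

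Both of the most abundant miRNAs, miR-9-5p and miR-125b-5p, were not called in TA mice. miR-9-5p, which acts in neural progenitors and neurons, averaged 155644 ± 12095 RPM in the IPN and 157058 ± 16500 RPM in the NAc (SD, n = 5 each, log2 difference -0.01, SE 0.0876, limma adjusted p = 0.935). miR-125b-5p averaged 85492 and 84835 RPM (log2 difference 0.01, SE 0.0948). The let-7 family, which marks differentiated cells, had 4 of 10 members called higher and 1 lower (median log2 difference 0.31). Of all tested miRNAs, 26.0% were called higher and 18.3% lower. With edgeR or DESeq2 scaling 1 let-7 member was called in each direction. let-7c-5p averaged 42502 RPM in the IPN and 27163 RPM in the NAc (log2 difference 0.65, limma adjusted p = 4.57e-05), while let-7i-5p was lower, at 4942 RPM in the IPN and 6349 RPM in the NAc (log2 difference -0.35, limma adjusted p = 0.0056, and 0.015 without IPN replicate 5). miR-26a-5p, lower at 38929 RPM in the IPN and 48155 RPM in the NAc (limma adjusted p = 0.0038), was no longer called without IPN replicate 5 (adjusted p = 0.0153) or without NAc replicate 4 (adjusted p = 0.0119).

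Among other families, all 5 tested miR-30 members and all 4 miR-181 members were called higher in the IPN, each list with a median log2 difference of 0.72. Of all tested miRNAs, 26.0% were called higher and 18.3% lower. With each of the other scalings 4 of the 5 miR-30 members were called higher. miR-30d-5p averaged 21036 RPM in the IPN and 11591 RPM in the NAc, and miR-181a-5p, a regulator of lymphocyte signalling that is also abundant in brain, averaged 10814 and 6490 RPM. The Dlk1-Dio3 locus on chromosome 12, a large imprinted miRNA cluster active in neurons, had 10 of 90 tested members called higher and 31 lower (median -0.25). Within it miR-540-5p averaged 43.8 RPM in the IPN and 162 RPM in the NAc, and miR-758-3p averaged 84.4 RPM in the IPN and 28.7 RPM in the NAc. miR-219a-5p and miR-338-3p, which promote oligodendrocyte maturation, averaged 3087 and 1338 RPM in the IPN and 2976 and 1517 RPM in the NAc and were not called. miR-375-3p, of neuroendocrine cells, averaged 28.3 and 28.7 RPM.

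Members of the miR-15/16, miR-23/27/24 and miR-130 families were called higher in 2 of 6, 2 of 7 and 2 of 4, with none lower. Those of the miR-17 family were called higher in 2 of 10 and with edgeR in 0 of 10. Over all 646 tested miRNAs 26.0% were called higher and 18.3% lower. The counts of miR-15/16, miR-23/27/24 and miR-17 lay near that higher share. With each of the other scalings 1 of 4 miR-130 members was called higher. Of 3 miR-29 members, miR-29a-3p was lower. Of 4 miR-7 members, miR-7a-5p and miR-7a-2-3p were lower, and the call of miR-7a-5p was lost without IPN replicate 1, 3, 4 or 5 or NAc replicate 1, 2 or 4.

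**Figure D2:**
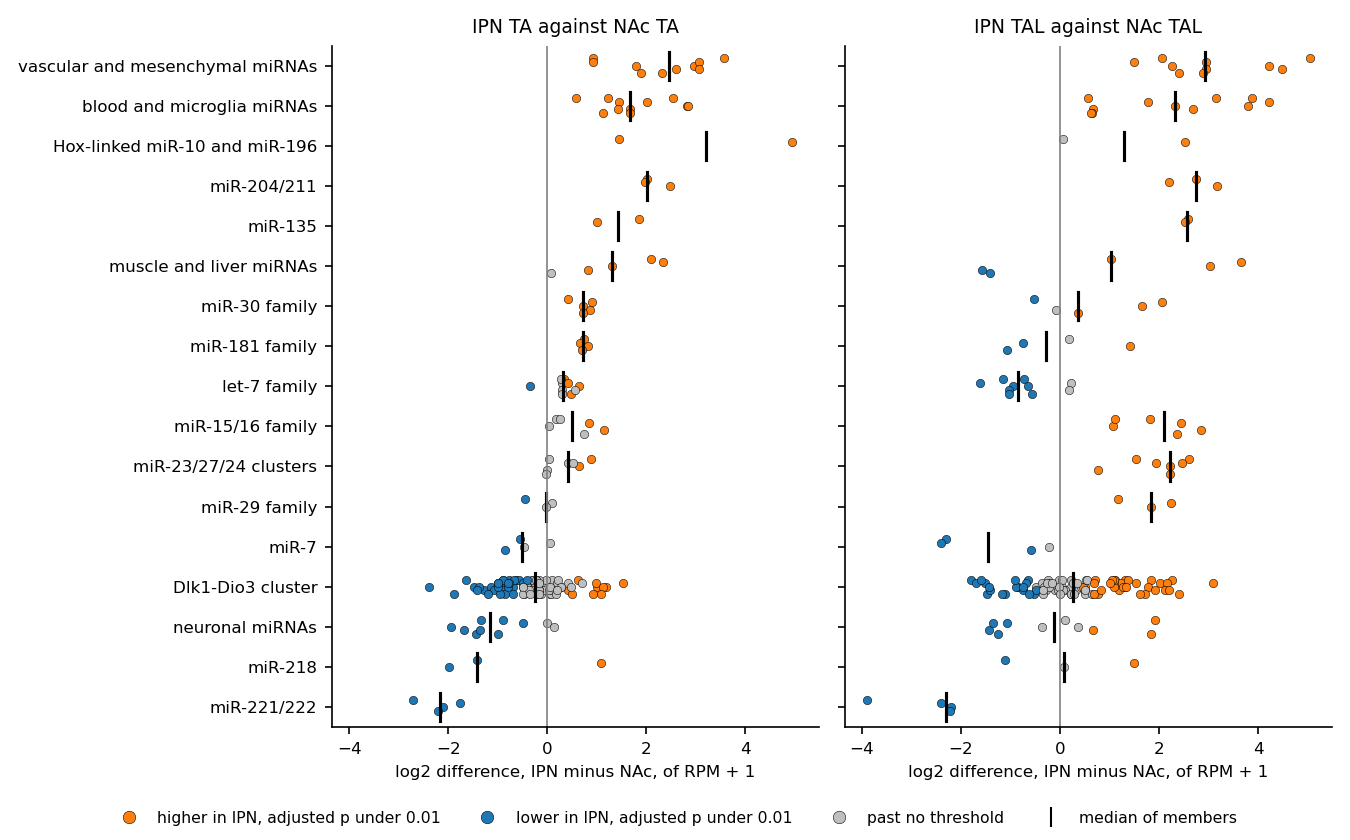
The log2 difference (IPN minus NAc, of RPM + 1) of each tested member of the main miRNA lists is plotted for TA mice on the left and TAL mice on the right, with members called higher in orange, lower in blue, uncalled members in grey and the list median as a bar. Vascular and blood miRNAs lie above 0 and miR-221 and miR-222 below 0 in both, while let-7 (medians 0.31 and -0.84) and miR-29 (medians -0.03 and 1.83) sit differently.

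The TAL libraries asked whether these differences recur in mice that drank the same solution for longer. In TAL mice 479 of 670 tested miRNAs differed between the regions (71.5%), 331 higher (49.4%) and 148 lower (22.1%) in the IPN, with a median log2 difference of 0.50 that quantile scaling moved to -0.02. Quantile scaling gave 229 higher and 243 lower calls. The IPN libraries of TAL mice stood apart from those of TA mice. Between TAL and TA mice, a comparison added after the values were seen, 470 of 682 miRNAs differed within the IPN (68.9%), 255 of them by a fold over 2, and 90 of 617 within the NAc (14.6%), 13 of them by a fold over 2. The correlation of 2 libraries, one from each set, was 0.944 to 0.971 in the IPN and 0.981 to 0.995 in the NAc, while within the IPN it was at least 0.978 among TA and 0.993 among TAL libraries. Within the NAc it was at least 0.994 among TA and 0.988 among TAL libraries. NAc TAL replicate 4 lay apart from the other NAc TAL libraries. The chi-square of read counts per degree of freedom was 1919 to 2113 in pairs with it, against 60.9 to 231 in the other pairs. Without it 502 miRNAs were called between the regions in TAL mice, and the count within the NAc was not repeated. Age, time on the solution and the handling of the 2 sets of libraries cannot be told apart.

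Of the 284 miRNAs called in TA mice and tested in TAL mice, 152 were called in the same direction, 53 in the opposite direction and 79 were not called. Among the 137 of these with a fold over 2 in TA mice, 91 were called in the same direction and 14 in the opposite one. Over the 637 miRNAs tested in both, the log2 differences had a Pearson r of 0.477 and a Spearman rho of 0.336, given as a description across miRNAs, which share their libraries. The difference between the TA and TAL contrasts was itself called for 424 of 659 miRNAs (64.3%).

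**Figure D3:**
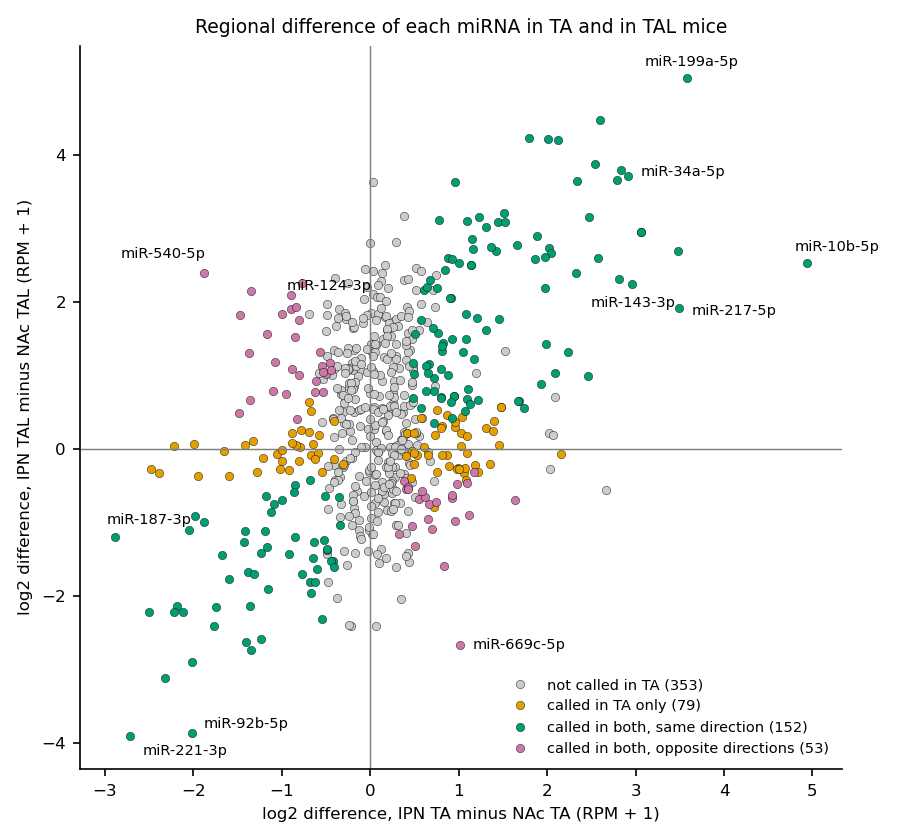
Each point is one of 637 miRNAs, with its log2 difference IPN minus NAc in TA mice on the x axis and in TAL mice on the y axis. The 152 miRNAs called in both in one direction (green) include miR-10b-5p, miR-199a-5p and miR-221-3p at the far ends, and 53 called in opposite directions (pink) include miR-540-5p and miR-669c-5p.

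All 12 leading miRNAs of the higher direction were called higher in TAL mice with no overlap of libraries, and 9 of the 12 of the lower direction were called lower with no overlap. miR-10b-5p averaged 26.8 ± 5.30 RPM in the IPN and 4.00 ± 1.64 RPM in the NAc of TAL mice (SD, n = 5 each), a log2 difference of 2.53 that was smaller than in TA mice (difference of differences 2.41, limma adjusted p = 5.16e-07). miR-10a-5p averaged 39.7 and 37.8 RPM in TAL mice and was not called. miR-221-3p averaged 865 ± 44.8 RPM in the IPN and 13000 ± 1341 RPM in the NAc of TAL mice (SD, n = 5 each, log2 difference -3.90). Both the vascular list (10 of 10 higher, median 2.92) and the blood and microglia list (11 of 11 higher, median 2.32, and 7 of 11 with edgeR or DESeq2) recurred, and so did miR-204 with miR-211 (3 of 3 higher), miR-135 (2 of 2 higher) and miR-221 with miR-222 (4 of 4 lower). Other lists did not. In TAL mice miR-181 had 1 of 4 members called higher and 2 lower (median -0.28), miR-30 had 3 of 5 higher and 1 lower, and the muscle and liver list had 3 of 5 higher and 2 lower. These list counts stand beside 49.4% of all tested miRNAs called higher and 22.1% called lower in TAL mice.

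The exceptions in the lower direction were miR-344c-3p, miR-431-5p and miR-193b-3p, which had log2 differences of -0.27, -0.32 and 0.04 in TAL mice and were not called. miR-193b-3p averaged 26.8 RPM in the IPN and 28.6 RPM in the NAc of TAL mice. Neuronal miRNAs split, with 3 of 10 higher and 4 of 10 lower. miR-128-3p and miR-132-3p were lower again, at 17772 and 1009 RPM in the IPN and 48221 and 2611 RPM in the NAc, while miR-124-3p was higher, at 76161, 67105, 64582, 77780 and 79541 RPM in the IPN, against 20737, 23629, 24848, 12933 and 17427 RPM in the NAc. For miR-124-3p the regions did not overlap in either set of mice, and the order was opposite (log2 difference -0.90 in TA and 1.91 in TAL mice).

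The most abundant miRNAs also moved. miR-9-5p averaged 73862 RPM in the IPN and 152951 RPM in the NAc of TAL mice, and miR-125b-5p averaged 147621 and 58725 RPM, both near equal in TA mice. The let-7 family had 8 of 10 members called lower in TAL mice, against 4 called higher in TA mice. miR-219a-5p averaged 21665 RPM in the IPN and 1809 RPM in the NAc of TAL mice (log2 difference 3.64), against 0.03 in TA mice, while miR-219a-2-3p had a log2 difference of 1.17 in TA and -0.31 in TAL mice. The miR-15/16, miR-23/27/24, miR-130 and miR-29 families were called higher in TAL mice in all tested members, 6, 7, 4 and 3. Of all miRNAs tested in TAL mice, 49.4% were called higher and 22.1% lower. With each of the other scalings 5 of 6 miR-15/16 members were called higher. With edgeR or DESeq2 6 of 7 miR-23/27/24 members were. The median of the Dlk1-Dio3 cluster was 0.27 in TAL mice and took the opposite sign with the other scalings (-0.16 to -0.30).

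The 4 miRNAs with the smallest p for the difference between the contrasts changed sign. miR-540-5p was at 36.1, 40.8, 39.2, 54.9 and 48.1 RPM in the IPN, against 164, 163, 179, 152 and 150.1 RPM in the NAc of TA mice. In TAL mice it averaged 421 RPM in the IPN and 80.3 RPM in the NAc, with no overlap in either set. miR-484 had log2 differences of -0.89 in TA and 2.10 in TAL mice, miR-879-5p of -1.47 and 1.82, and miR-669c-5p of 1.01 and -2.66. The GC content of the mature sequence was weakly related to the log2 difference across 553 miRNAs in both sets, with a Spearman rho of -0.097 in TA and -0.028 in TAL mice.

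One IPN library was high in a group of miRNAs known from epithelia and sensory cells, the miR-200 and miR-183 groups. miR-183-5p was at 33.1, 16.7, 38.4, 10.2 and 1131 RPM in the IPN, against 8.40, 10.6, 14.97, 12.6 and 10.2 RPM in the NAc. miR-200a-3p was at 20.2, 17.7, 56.4, 9.28 and 976 RPM in the IPN, against 11.1, 14.0, 10.6, 8.16 and 7.54 RPM in the NAc. IPN replicate 5 held nearly all of the signal, replicate 3 came next, and replicates 1, 2 and 4 were lower, with replicate 4 within the range of the NAc libraries. The sum over the 8 members was 105.5, 72.7, 231.8, 36.6 and 4113 RPM in the IPN, against 34.9 to 50.5 RPM in the NAc, and it was 25.7 to 106.6 RPM in the IPN and 31.5 to 88.7 RPM in the NAc of TAL mice.

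**Figure D4:**
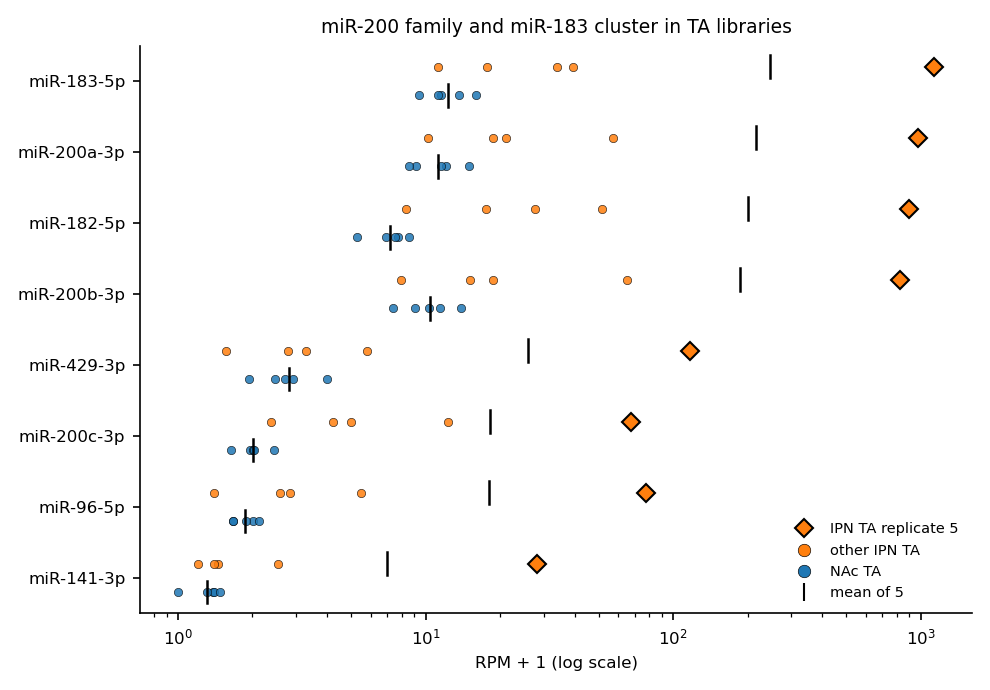
RPM + 1 (log axis) of the 8 members of the miR-200 family and miR-183 cluster in each IPN TA (orange) and NAc TA (blue) library, with IPN replicate 5 as a diamond and the mean of each region as a bar. Replicate 5 lies far above every other library for all 8, as for miR-183-5p (1131 RPM, against at most 38.4 RPM in the other IPN libraries).

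With all libraries, limma called 0 of the 8 members at adjusted p under 0.01, with a median log2 difference of 2.03. At an unadjusted p under 0.05 there were 5. The count was 6 higher with edgeR and 1 higher with DESeq2. Without IPN replicate 5, miR-182-5p (log2 difference 1.59, limma adjusted p = 0.00177) and miR-200c-3p (log2 difference 1.32, limma adjusted p = 0.00345) were called higher, while miR-183-5p had a log2 difference of 0.90 (adjusted p = 0.0182), against 2.03 with it. In mRNA of the same preparations, the pituitary gene Gh was at 0, 0.05, 0, 0 and 9.31 TPM in the IPN libraries, highest in replicate 5, and Prl was at 0.80 TPM there and at most 0.05 TPM in the others. The epithelial cadherin gene Cdh1 was at 0.13, 0.12, 1.71, 0.13 and 1.46 TPM, high in replicates 3 and 5, and the pituitary gene Cga was at 24.6 TPM in replicate 3 and at most 0.19 TPM in the others. Other genes of these lists did not follow. Epcam was at 0 TPM in replicate 5 and at 0.23 TPM in replicate 3, Krt8 averaged 0.21 TPM in the IPN and 0.384 TPM in the NAc, Krt18 was highest in replicate 2, and the pituitary gene Pomc was at 3.89 TPM in replicate 5, 2.34 to 4.18 TPM in the other IPN libraries and 1.85 to 4.20 TPM in the NAc. Of the 5 pituitary and 5 epithelial genes, only Pomc and Cga were abundant enough to be tested, and neither was called. Their part in the miRNA levels of replicates 3 and 5 was not tested. Leaving out IPN replicate 5 left the leading differences in place, with miR-10b-5p at a log2 difference of 4.92, and 263 of 286 calls were made both with and without it.

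The ratio of the 2 arms of one hairpin was compared within each library, on RPM plus 1, which damps the ratio where an arm is low. Of 193 hairpins with both arms measured, 32 differed between the regions in TA mice (16.6%), 20 with more of the 5p arm in the IPN (10.4%) and 12 with less (6.22%). The count was 49 without IPN replicate 3 and 21 with a pseudocount of 0.1. The largest difference was in miR-92b, where log2 of 5p over 3p was -5.56, -5.42, -5.61, -5.99 and -5.32 in the IPN, against -2.98, -2.79, -3.55, -3.20 and -3.48 in the NAc. The regions did not overlap (difference -2.38, SE 0.19, limma adjusted p = 3.3e-07). miR-92b-5p averaged 28.4 RPM in the IPN and 118 RPM in the NAc, while miR-92b-3p, the arm with the seed of the miR-25 family, averaged 1404 and 1096 RPM. This difference recurred in TAL mice (-3.99).

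The 3 hairpins that followed were miR-431, miR-540 and miR-1912, with differences of -2.27, -1.76 and -1.51, in each case with a lower 5p to 3p ratio in the IPN. In TAL mice, where 74.9% of hairpins differed, miR-431 and miR-1912 had differences of 0.05 and -0.57 and were not called, and miR-540 was called in the opposite direction (2.08).

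Many miRNAs lie within a protein-coding gene and can be transcribed with it. Of 46 listed pairs, 36 had both the miRNA and the host mRNA tested. The miRNA was called in 22 of these 36 pairs, against 44.3% of all tested miRNAs. Both were called in 12 pairs, of which 10 had the same direction and 2 the opposite one. Of the latter 2, miR-25-3p with Mcm7 rests on a miRNA call that was lost with quantile scaling, edgeR and DESeq2. Over the 36 pairs, 25 had the same sign of both differences. Called hosts were mostly lower in the IPN (13 lower and 1 higher of 37 listed), as were called mRNAs of all genes (18.4% lower, 5.84% higher). The 36 pairs have 31 hosts, so they are not independent. Among pairs lower in the IPN, miR-128-1-5p averaged 7.86 RPM in the IPN and 41.9 RPM in the NAc, and its host R3hdm1 averaged 13.7 ± 2.21 and 44.0 TPM. miR-218-2-3p averaged 3.96 RPM in the IPN and 18.7 RPM in the NAc, and its host Slit3, which encodes an axon guidance ligand, averaged 0.652 and 10.9 TPM. miR-708-5p averaged 282 and 849 RPM, and its host Tenm4 averaged 5.42 and 22.3 TPM. miR-190a-5p with Tln2 and miR-874-3p with Klhl3 had the same pattern. Higher in the IPN were miR-126a-3p and Egfl7, which averaged 76.3 TPM in the IPN and 26.6 TPM in the NAc.

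**Figure D5:**
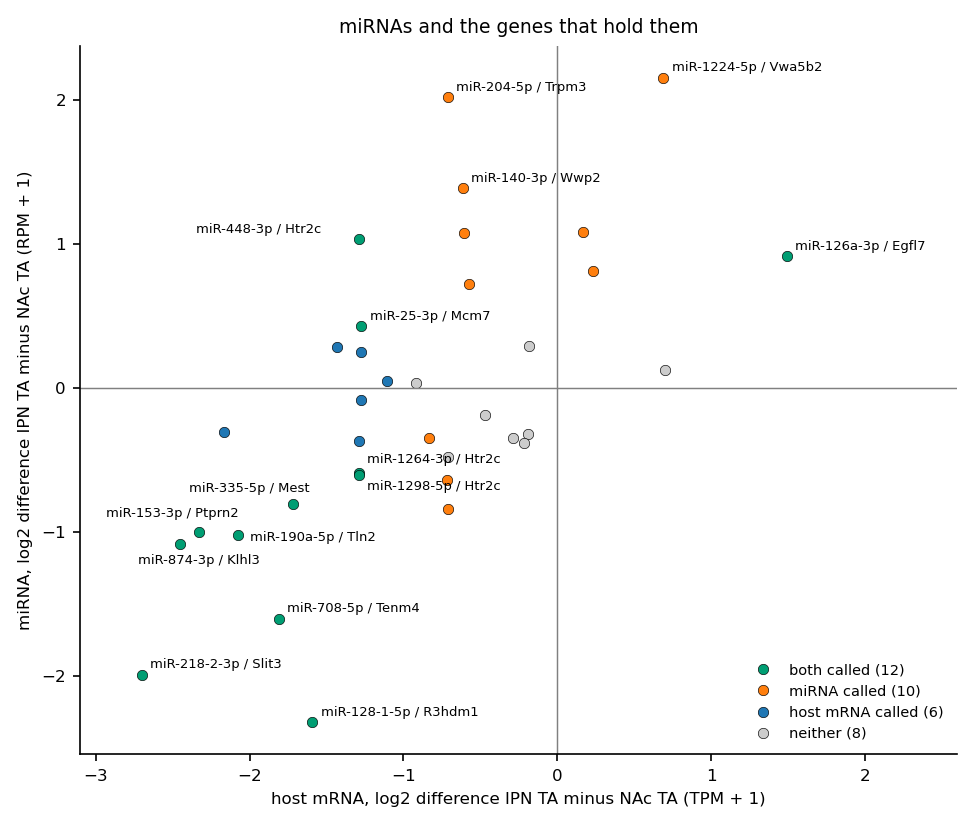
The log2 difference (IPN minus NAc) of the host mRNA (of TPM + 1, x axis) is plotted against that of the miRNA it holds (of RPM + 1, y axis) for 36 pairs in TA mice, coloured by which of the pair was called. Of the 12 pairs with both called, 10 lie in the lower left or upper right, and miR-448-3p with Htr2c and miR-25-3p with Mcm7 lie in the upper left.

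Other miRNAs differed where their host was not called or moved the other way. miR-204-5p had a log2 difference of 2.02, while its host Trpm3 averaged 1.16 TPM in the IPN and 2.83 TPM in the NAc and was not called. miR-1224-5p averaged 326 RPM in the IPN and 72.0 RPM in the NAc, and its host Vwa5b2 averaged 7.07 and 3.90 TPM and was not called. miR-140-3p averaged 4559 and 1740 RPM (log2 difference 1.39), and its host Wwp2 averaged 2.20 and 4.08 TPM and was not called. Neither did the hosts of miR-218-1-3p (log2 difference 1.08, Slit2) and miR-224-5p (1.09, Gabre) pass the test.

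The miRNAs in the introns of Htr2c, the serotonin 2C receptor gene, did not move as one. Htr2c averaged 6.42 ± 2.53 TPM in the IPN and 19.0 TPM in the NAc and was called lower. miR-1264-3p averaged 271 RPM in the IPN and 417 RPM in the NAc, and miR-1298-5p averaged 256 and 380 RPM, both lower, while miR-448-3p was higher, at 299 ± 60.0 RPM in the IPN and 144 ± 14.4 RPM in the NAc (SD, n = 5 each, limma adjusted p = 1.7e-05). Over the 9 tested arms of these hairpins, 2 were called higher and 4 lower, against 26.0% and 18.3% of all tested miRNAs. The call of miR-1264-3p was lost without IPN replicate 1, 2 or 5 or NAc replicate 3 or 5, that of miR-1298-5p without NAc replicate 3 or 4, and that of miR-1298-3p without NAc replicate 1, 3, 4 or 5. Among the hosted miRNAs, miR-874-3p, miR-153-3p, miR-33-5p and miR-25-3p were called in the opposite direction in TAL mice, with log2 differences of 1.18, 1.84, 1.93 and -0.52. Of the hosted miRNAs named above, miR-218-2-3p, miR-708-5p, miR-190a-5p, miR-1224-5p, miR-140-3p, miR-224-5p, miR-448-3p and miR-1264-3p were not called in TAL mice, with log2 differences of 0.08, -0.37, -0.27, -0.07, 0.25, -0.41, 0.43 and -0.05.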

How the data were processed

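miRNAs were measured in 20 libraries and mRNAs in the 10 libraries of TA mice. The authors cut adapters with cutadapt 1.11, mapped small RNA reads to mm10 with Bowtie 1.1.2 without mismatches, split reads that fit several miRNAs among them, and deposited RPM. Values of miRNAs with one sequence are therefore not separate measurements. For mRNA the authors used STAR 2.5.3a and RSEM 1.3.0 and deposited TPM per gene, which keeps no depth. The deposited mapping totals are counts of reads by the authors, and RPM times the miRNA total lay within 0.002 of a whole read in all values, so reads were recovered for count tests. Tables by the authors of fold change and FDR from their DESeq2 1.14.1 fits were not used. No column of per-sample values without a sample was used (0 such columns).

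The comparison of regions used limma 3.58.1 with an intensity trend (R 4.3.3), fitted to log2 values of RPM or TPM with a pseudocount of 1, for miRNAs or genes with a mean of at least 1 over the libraries compared. A miRNA was called at p under 0.01 after Benjamini-Hochberg adjustment, and an mRNA had to pass a fold of 2 as well. The difference between TA and TAL contrasts was the interaction of region and group over 20 libraries. The method was tested on simulated data. Alternatives were a pseudocount of 0.1, other filters, quantile scaling, edgeR 4.0.16 (TMM), DESeq2 1.42.0, a replicate block and leaving out each library. TAL against TA within a region, and the blood, vascular and microglial mRNA lists, were added after values were seen. Figures used Python 3.11.15 and matplotlib 3.10.9.

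The comparison, the miRNA lists and the markers were chosen with earlier results of these data known. Named miRNAs were the 12 largest called differences per direction without overlap and with a mean of at least 10 RPM, the 5 highest per region, up to 4 members per list, those that moved most without IPN replicate 5, the 4 hairpins of largest arm difference, the 4 smallest interaction p and hosted miRNAs called with a fold over 2. Others were named after their values were seen. Raw reads and the medial habenula were not analysed here.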

Additional observations from a re-analysis of the deposited data

Results flagged for a closer look

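The miRNAs examined include the 6 chosen because they moved most without IPN TA replicate 5. Groups in which that library lies apart were therefore partly fixed by the choice, and their count cannot be set against a chance rate. Of 82 groups of 5 libraries examined (41 miRNAs in 2 regions), 8 held a library far from the other 4. The rule is met by chance in about 1 group in 20 where miRNAs are not chosen for it. In 5 of the 8 groups the library was IPN TA replicate 5, with miR-183-5p at 1131 RPM, miR-200a-3p at 976 RPM, miR-182-5p at 895 RPM, miR-200b-3p at 824 RPM and miR-429-3p at 115 RPM. The other IPN libraries had at most 64.4 RPM of any of these. In 2 it was IPN TA replicate 3, with miR-221-3p at 2173 RPM (1495 to 1636 RPM in the others) and miR-132-5p at 389 RPM (281 to 300.1 RPM in the others). The last was NAc TA replicate 2, with miR-10b-5p at 2.21 RPM (0.739 to 0.929 RPM in the others).

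For 26 of the 41 miRNAs the regional difference itself differed between TA and TAL mice by limma's interaction test, against 424 of all 659 miRNAs tested (64.3%). The 41 include the 4 chosen for the smallest p of this test, whose calls were fixed by that choice. The values given are the log2 difference in TA minus that in TAL mice. Among miRNAs higher in the IPN of TA mice these were 2.41 for miR-10b-5p, 1.58 for miR-217-5p, 0.71 for miR-143-3p, -1.47 for miR-199a-5p, -0.96 for miR-223-3p, -1.89 for miR-145a-5p and -1.34 for miR-451a. Among miRNAs lower there they were -1.70 for miR-187-3p, 1.19 for miR-221-3p, -2.22 for miR-344c-3p, -2.07 for miR-431-5p, 0.79 for miR-128-1-5p, -2.26 for miR-193b-3p, 1.84 for miR-92b-5p and 0.88 for miR-139-3p. Among the most abundant miRNAs they were 1.05 for miR-9-5p, -1.32 for miR-125b-5p, 1.61 for let-7c-5p, 0.51 for miR-101a-3p and 0.99 for let-7f-5p. The others were 3.21 for miR-182-5p, 1.37 for miR-375-3p, -2.99 for miR-484, -4.27 for miR-540-5p, -3.30 for miR-879-5p and 3.67 for miR-669c-5p. The 4 last named changed sign between TA and TAL mice. So did miR-182-5p, let-7c-5p, let-7f-5p and miR-193b-3p, the last with a TAL difference of only 0.04. The IPN libraries of TAL mice stood apart from those of TA mice, and age, time on the solution and the handling of the libraries cannot be told apart.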

How the results depend on the processing

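With the alternatives to the comparison of TA mice, the number of miRNAs that differed stayed within a factor of 1.5 of 286. It was 225 with a mean of at least 10 RPM, 280 with edgeR (261 of them in common with limma and in the same direction), 320 with DESeq2 and 258 to 304 with each library left out. In TAL mice 479 miRNAs were called, 462 to 502 with each library left out and 312 with a mean of at least 10 RPM, where fewer miRNAs were tested. The difference between the contrasts was called for 424 miRNAs, 402 to 434 with each library left out and 298 with a mean of at least 10 RPM. Hairpins with an arm difference numbered 32, 21 with a pseudocount of 0.1 and 24 to 49 with each library left out, lowest without IPN TA replicate 5 and highest without IPN TA replicate 3. Of mRNAs 3291 were called, 2733 to 3768 with each library left out. The deviations of same-numbered libraries correlated at -0.115 to 0.124 in TA and -0.111 to 0.222 in TAL mice. TA replicate 1 and TAL replicates 2 and 5 correlated best with their own number. Since the regions are different tissues, these correlations cannot decide whether same-numbered libraries came from the same mice. A replicate block gave 275 miRNAs in TA and 468 in TAL mice, 407 for the difference between them, 28 hairpins and 3323 mRNAs. Among 114 named miRNAs, uncalled differences near 0 could change sign, as for miR-375-3p (log2 difference -0.02, and 0.15 without IPN replicate 5). None of the 114 that was called in the main fit or in the alternative changed direction. With quantile scaling 8 lost and 2 gained a call, with edgeR 6 and 5, and with DESeq2 6 and 3, among them let-7a-5p, let-7g-5p, miR-100-5p, miR-25-3p and miR-30a-5p, which lost it with all 3. Depth limits miRNAs near 1 RPM, such as miR-10b-5p in the NAc, at 8 to 22 reads.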
